A study of Mus musculus with 18 samples.

Results

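GILZ KO and GILZ TG bone marrow-derived macrophages (BMMs) were compared after treatment with lipopolysaccharide (LPS) from the outer membrane of bacteria. The comparison took 6 of the 18 libraries of the series, 3 of each genotype, chosen by their genotype and treatment labels alone, and covered all genes with enough counts. The 3 LPS-treated WT libraries are shown for reference, and the untreated libraries of both genotypes were used to ask whether a difference depended on LPS. Bone marrow of female C57BL/6J mice was differentiated for 6 days with 50 ng/ml of the growth factor M-CSF, and the cells received 100 ng/ml LPS for 4 h. The mice were adult and, by the study's account, age-matched within experimental sets. In GILZ KO mice, loxP sites flank exon 6 of Gilz, and GILZ TG mice carry a Gilz cDNA at the ROSA26 locus behind a loxP-flanked stop. The Cre recombinase that acts on these alleles is driven by the Lyz2 promoter and is also carried by the WT mice, so both changes are limited to cells that have expressed Lyz2. As one allele removes GILZ and the other adds it, a difference between the genotypes does not show which of the alleles it came from. The libraries held 22640548, 14583055 and 15491518 reads on genes in GILZ KO replicates 1, 2 and 3 and 38557029, 33356120 and 20757976 in GILZ TG. Each library of a group is a separate preparation. The test of GILZ KO against GILZ TG set their difference against the spread between preparations, which the LPS-treated WT libraries also helped to estimate.

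GILZ, the glucocorticoid-induced leucine zipper, is the product of Tsc22d3 and is induced by glucocorticoids through their receptor. It is known to bind other proteins, among them the p65 subunit of NF-kB and members of AP-1, transcription factors behind many cytokine genes. Macrophages sense LPS by Toll-like receptor 4 with the co-receptor CD14, which signals on one branch to NF-kB and MAP kinases and on the other to interferon beta and the genes it induces.

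GILZ KO and GILZ TG differed in transcript level at Tsc22d3 and at the ROSA26 locus. Tsc22d3 (ENSMUSG00000031431, chromosome X from 140539528 to 140600659 of GRCm38, the build of all gene positions here) was at 2.96, 3.28 and 2.50 TPM in GILZ KO and 127, 141 and 127 TPM in GILZ TG. TPM is a transcript level scaled by length and by the total of the library. The TG libraries lay close together and far above the KO libraries, and WT was at a mean of 5.15 TPM (log2 fold change -4.76 ± 0.12 SE, edgeR adjusted p = 5.36e-09). A positive log2 fold change means higher in GILZ KO throughout. The effective length assigned to the gene, which depends on the transcript forms found, was 1972 to 2039 bases in GILZ KO and 1167 to 1224 bases in GILZ TG. The test used counts that were not scaled by length. Its fold of 27.1 is therefore smaller than the one between the mean TPM values, 2.91 in GILZ KO and 132 in GILZ TG. A value for the whole gene does not show whether exon 6 was lost.

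Gt(ROSA)26Sor (ENSMUSG00000086429, chromosome 6 from 113067428 to 113077333), the noncoding transcript of the locus that received the cDNA, was at 10.1, 9.07 and 7.79 TPM in GILZ KO and 0.70, 1.23 and 1.18 TPM in GILZ TG. It was low in every TG library and at 10.1, 11.6 and 8.49 TPM in WT (log2 fold change 4.10 ± 0.23 SE, edgeR adjusted p = 9.99e-06). The TG values rested on expected counts of only 8, 12 and 5. The effective length assigned to this transcript was 856 to 987 bases in GILZ KO and 369 to 520 bases in GILZ TG. Lyz2 (ENSMUSG00000069516, chromosome 10 from 117277331 to 117282321), the lysozyme gene that hosts Cre, was at 57.6, 67.7 and 63.3 TPM in GILZ KO and 22.2, 41.9 and 70.3 TPM in GILZ TG. Here the groups overlapped, and the gene passed the threshold only without GILZ TG replicate 3 (0.50 ± 0.32 SE, edgeR adjusted p = 0.428, and 1.00 with adjusted p = 0.0153 without that library, over all alternatives 0.0153 to 0.805). In WT, Lyz2 was at 6766, 8034 and 9466 TPM, far above both, although the study's methods give the Cre allele to all genotypes. The reason was not tested. Xist was at 98.2 to 114 TPM in GILZ KO and 111 to 146 TPM in GILZ TG, and Ddx3y, Kdm5d, Uty and Eif2s3y of the Y chromosome were listed at 0 in all of these libraries, which were labelled female.

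**Figure D1:**
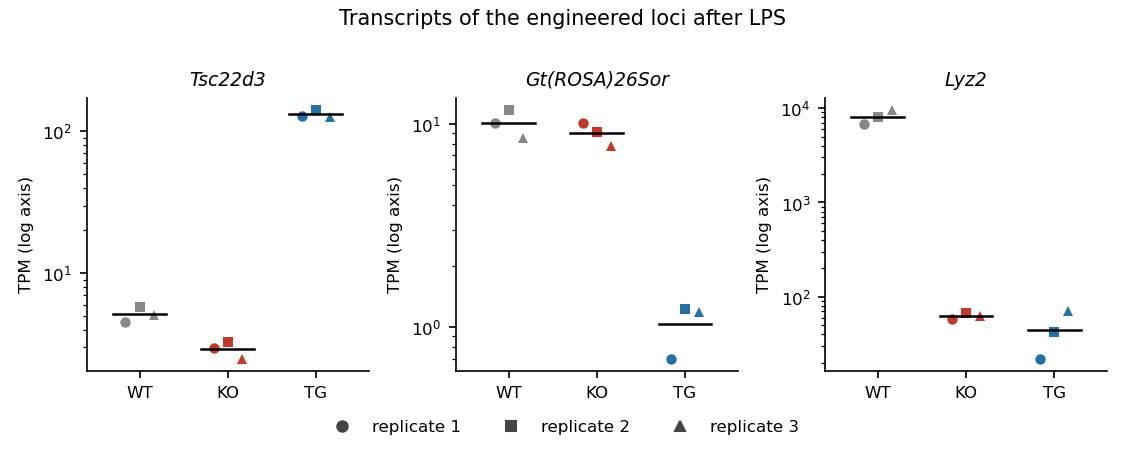
TPM on a log axis of Tsc22d3, the ROSA26 transcript and Lyz2 in the WT, GILZ KO and GILZ TG libraries after LPS, with each replicate as a point and the group mean as a line. Tsc22d3 is high and the ROSA26 transcript low in the 3 GILZ TG libraries, and Lyz2 is low in GILZ KO and GILZ TG.

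GILZ TG replicate 3 stood apart from its group. The SD of the log2 differences between a pair of libraries, over 7518 genes with at least 10 CPM (counts scaled to the library total), was 0.152 to 0.169 within GILZ KO and 0.146 between GILZ TG replicates 1 and 2. Replicate 3 was at 0.286 and 0.294 from the other TG libraries and at 0.210 to 0.252 from the KO libraries, although its Tsc22d3 level was that of its group. Within WT the distances were 0.182 to 0.285. No library appeared to be a duplicate of another, as every pair of KO or TG libraries differed by more than counting noise (smallest chi-square per gene 4.47).

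Transcripts listed as markers of some other cell types, the stromal and contractile ones most clearly, went with the same split. For comparison, of all genes tested, 2.6% had an adjusted p under 0.05 in edgeR, 5.88% in DESeq2 and 1.21% in limma, and 19.1% had an unadjusted p under 0.05 in edgeR. The marker lists were chosen with earlier results of these data known, so their shares are not a test of enrichment. The macrophage markers summed to 6223, 6294 and 6512 TPM in GILZ KO and 6199, 6209 and 6401 TPM in GILZ TG, led by Cd14. Of these 12 genes, edgeR called 0 at an adjusted p under 0.05 and DESeq2 called 1, and 3 had an unadjusted p-value under 0.05. Stromal fibroblast markers summed to 22.9, 20.2 and 32.0 TPM in GILZ KO and to 159, 221 and 20.5 TPM in GILZ TG. Of 18 listed, 14 were tested and 3 passed the threshold (21.4%, beside 2.6% of all genes), the collagen genes Col1a1 and Col5a1 and the matrix gene Postn, all higher in GILZ TG. They were called in 8 of 20, 10 of 19 and 9 of 19 alternatives, Col1a1 and Postn overlapped between the groups, limma called 0 genes of the list and DESeq2 called 9. With single libraries left out, edgeR called 0 to 13. The median log2 fold change was -2.87, and without GILZ TG replicate 3 it was -3.38 with 13 genes past the threshold, beside 11.2% of all genes in that fit. Sparc was the most abundant at a mean of 16.4 TPM, and the defining markers Thy1 and Pdgfra were at 0.0167 and 0.143 TPM. Contractile cell markers, led by Acta2, summed to 10.4, 7.38 and 13.9 TPM in GILZ KO and 72.2, 90.5 and 7.59 TPM in GILZ TG (5 of 8 tested, 0 past the threshold in edgeR and 3 in DESeq2, 5 with an unadjusted p-value under 0.05).

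Neutrophil lineage markers, led by S100a9, summed to 77.4, 74.0 and 62.7 TPM in GILZ KO and 228, 527 and 98.8 TPM in GILZ TG, while the granule genes Mpo and Elane were at a mean of 0.37 and 0.075 TPM. Of 12 listed, 6 were tested, and 0 passed the threshold in edgeR and 2 in DESeq2, with 5 at an unadjusted p-value under 0.05. B and plasma cell markers, led by Igkc, summed to 19.9, 19.5 and 17.4 TPM in GILZ KO and 95.7, 201 and 31.2 TPM in GILZ TG, with the defining marker Pax5 at 0.0417 TPM. Of the 4 genes tested, 3 were at a higher level in GILZ TG and 1 in GILZ KO, each without overlap between the groups. The immunoglobulin genes Igkc and Ighg2b, 2 of these 4 (50.0%, beside 2.6% of all genes), passed the threshold, in 15 of 18 and 15 of 18 alternatives. GILZ TG replicates 1 and 2 thus carried more of these transcripts than any KO library, and replicate 3 was above the KO libraries for the neutrophil and B cell lists but within their range for the stromal and contractile lists. The untreated libraries with the same numbers had stromal sums of 199.8, 233 and 19.3 TPM in GILZ TG and 23.9, 9.80 and 23.4 TPM in GILZ KO. In bulk RNA, fewer cells of a type and less RNA per cell cannot be told apart. Whether these transcripts came from other cells or from the macrophages themselves was not tested. The part of these transcripts in the differences that follow was not tested.

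Other marker lists had few tested members, so that 1 call is a large share beside the 2.6% of all genes. The endothelial list had 5, of which Eng, a co-receptor of TGF-beta that macrophages also express, was higher in GILZ KO (0.56 ± 0.08 SE, edgeR adjusted p = 0.00785, 19 of 20 alternatives). The adipocyte list had 2, of which Fabp4, a fatty acid carrier also found in macrophages, was higher in GILZ TG (-0.66 ± 0.14 SE, edgeR adjusted p = 0.0333, 15 of 20 alternatives). The osteoblast list had 3, with Col1a1 past the threshold and Spp1, which macrophages express, as the most abundant. Of the lists for dendritic cells (3), megakaryocytes (2), T and NK cells (1) and mast cells (1), 0 genes passed it in edgeR or DESeq2 or had an unadjusted p-value under 0.05, and no erythroid marker was tested, with sums of at most 0.38 TPM.

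In all, edgeR's quasi-likelihood test covered 12164 genes, and 316 of them (2.6%) had an adjusted p-value under 0.05 and are referred to as called. Of these, 148 (1.22%) were higher in GILZ KO and 168 (1.38%) in GILZ TG. Their median absolute log2 fold change was 0.629, with 34 genes more than 2-fold higher in GILZ KO and 44 in GILZ TG. The TPM of the KO and TG libraries did not overlap in 296 of the called genes, beside 20.6% of all genes tested. Of the 20 that overlapped, 16 were higher in GILZ TG. For 3 libraries against 3, exact permutation of a single gene has 0.1 as its smallest p-value.

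The number of calls depended on single libraries. Without GILZ TG replicate 3 there were 1403 calls among 12524 genes (11.2%, with 5.23% higher in GILZ KO and 5.97% in GILZ TG), which included all 316. Without GILZ KO replicate 1, 2 or 3 there were 24, 133 and 54, without GILZ TG replicate 1 or 2 there were 69 and 89, and without WT replicate 2, which shares the estimate of the spread, there were 158. Of the 63 called genes named by rule, 50 were not called without GILZ KO replicate 1, and 0 were lost without GILZ TG replicate 3. For the main genes, the number of alternative analyses that called them is therefore given, out of those that tested them.

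**Figure D2:**
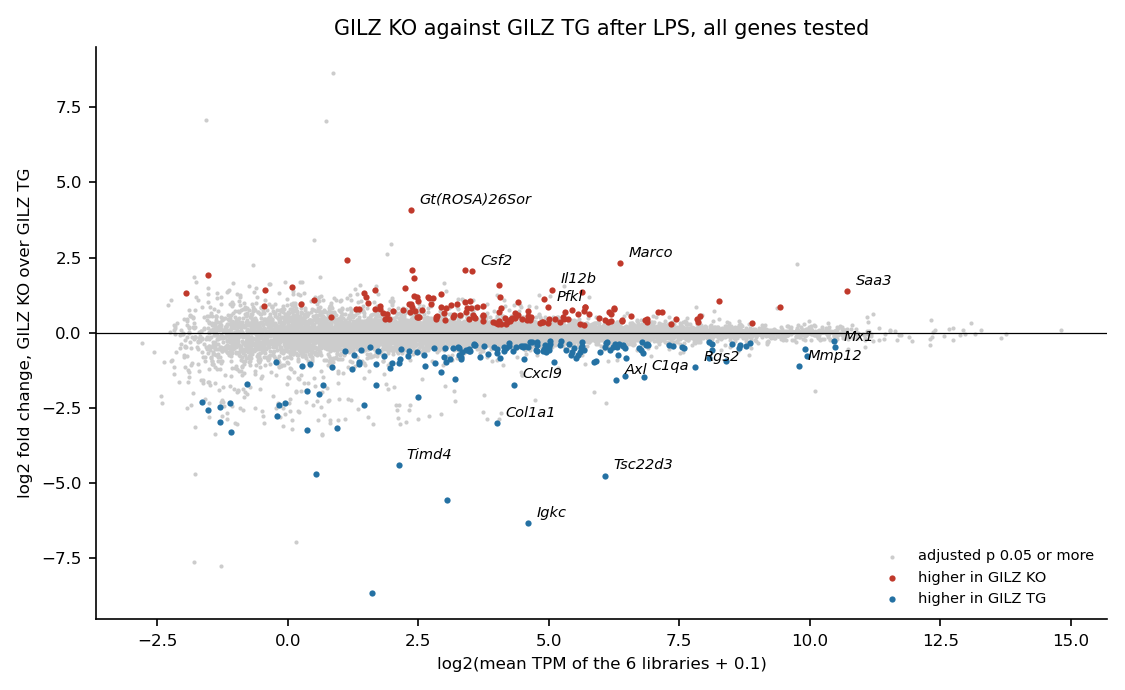
Log2 fold change of GILZ KO over GILZ TG after LPS against the log2 of the mean TPM plus 0.1 for 12164 genes, with uncalled genes in grey and the 148 genes called higher in GILZ KO and 168 called higher in GILZ TG in the colours of the legend. Marco, Csf2, Il12b and Saa3 lie among the former, and Tsc22d3, Timd4, Axl and Igkc among the latter.

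Receptors for particles and dying cells were split between the genotypes. Of 42 genes listed, 36 were tested, of which 3 were called towards GILZ KO and 5 towards GILZ TG, together 22.2% beside 2.6% of all genes. This list and those below were chosen with earlier results of these data known, so their shares are not a test of enrichment. The median log2 fold change was -0.09, beside -0.0015 for all genes. Axl (ENSMUSG00000002602, chromosome 7 from 25757273 to 25788705), a receptor tyrosine kinase that takes up dying cells through the bridging protein Gas6, was at 33.9, 47.9 and 38.0 TPM in GILZ KO and 96.9, 115 and 139 TPM in GILZ TG. The groups did not overlap and differed 2.99-fold (log2 fold change -1.58 ± 0.14 SE, edgeR adjusted p = 0.000719, called in 20 of 20 alternatives). Gas6 was also higher in every TG library, at 70.3, 70.8 and 71.4 TPM in GILZ KO and 96.2, 100.4 and 80.9 TPM in GILZ TG (-0.39 ± 0.07 SE, edgeR adjusted p = 0.0219, 13 of 20 alternatives).

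Timd4 (ENSMUSG00000055546, chromosome 11 from 46810800 to 46844332) encodes TIM-4, a receptor for phosphatidylserine on apoptotic cells. It was at 0.23, 0.53 and 0.43 TPM in GILZ KO and 6.35, 8.45 and 9.52 TPM in GILZ TG. The KO libraries were close to 0, as was WT with a mean of 0.38 TPM, and replicate 3 was the highest of the TG libraries (-4.42 ± 0.33 SE, edgeR adjusted p = 0.000157, 19 of 19 alternatives).

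Marco (ENSMUSG00000026390, chromosome 1 from 120474538 to 120505024), a scavenger receptor for bacteria and unopsonised particles, went the other way, with 104, 196 and 113 TPM in GILZ KO and 23.5, 23.1 and 36.3 TPM in GILZ TG. All KO libraries lay above all TG libraries, with the WT mean of 72.5 TPM in between (2.32 ± 0.26 SE, edgeR adjusted p = 0.00352, 20 of 20 alternatives). Colec12, a scavenger receptor with a lectin domain, was at 15.4, 17.7 and 14.1 TPM in GILZ KO and 8.70, 8.66 and 8.58 TPM in GILZ TG (0.85 ± 0.09 SE, edgeR adjusted p = 0.00255, 20 of 20 alternatives). Jmjd6 was at 21.1, 17.6 and 20.3 TPM in GILZ KO and 12.5, 13.1 and 13.9 TPM in GILZ TG and likewise did not overlap (0.68 ± 0.10 SE, edgeR adjusted p = 0.00785). It is in the list as a former candidate receptor for phosphatidylserine and is now known as a nuclear hydroxylase.

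Clec7a, the beta-glucan receptor dectin-1, was higher in GILZ TG, at 31.7, 35.0 and 42.5 TPM in GILZ KO and 52.0, 61.4 and 61.5 TPM in GILZ TG (-0.76 ± 0.11 SE, edgeR adjusted p = 0.00851, 18 of 19 alternatives). Itgax, the CD11c subunit of complement receptor 4, was at 4.46, 4.11 and 5.43 TPM in GILZ KO and 13.6, 17.4 and 9.36 TPM in GILZ TG (-1.53 ± 0.24 SE, edgeR adjusted p = 0.0122, 19 of 20 alternatives). Outside the list, C1qa, a chain of the complement component C1q that tags dying cells, was at 54.1, 63.8 and 62.7 TPM in GILZ KO and 185, 227 and 82.3 TPM in GILZ TG. Its level in TG replicate 3 was nearer to the KO libraries than to the other TG libraries (-1.46 ± 0.28 SE, edgeR adjusted p = 0.0263, 12 of 20 alternatives). The most abundant members of the list, Cd36, Fcer1g and Cd68, were not called, with log2 fold changes of -0.14, -0.15 and -0.08.

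Among cytokines, the genes called higher in GILZ KO were Csf2, Csf3 and Il12b. Of 26 cytokine genes listed, 25 were tested, and besides these 3 only Il27 was called, which was higher in GILZ TG (16.0% in all, beside 2.6% of all genes). The median of the list was -0.18. Csf2 (ENSMUSG00000018916, chromosome 11 from 54247271 to 54249667), the gene of the growth factor GM-CSF, was at 22.2, 15.6 and 16.7 TPM in GILZ KO and 3.30, 2.47 and 8.01 TPM in GILZ TG. The groups did not overlap, and WT lay between them at a mean of 8.22 TPM (2.05 ± 0.36 SE, edgeR adjusted p = 0.0183, 15 of 19 alternatives). Csf3, the gene of G-CSF, was at 56.7, 67.1 and 90.2 TPM in GILZ KO and 21.1, 21.4 and 41.8 TPM in GILZ TG (1.35 ± 0.28 SE, edgeR adjusted p = 0.0325, 14 of 20 alternatives).

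Il12b (ENSMUSG00000004296, chromosome 11 from 44400063 to 44414033), the subunit shared by IL-12 and IL-23, was at 41.0, 51.3 and 53.8 TPM in GILZ KO and 22.7, 18.2 and 12.5 TPM in GILZ TG. TG replicate 3 was the lowest library here, unlike for Csf2 and Csf3 (1.43 ± 0.18 SE, edgeR adjusted p = 0.00585, 20 of 20 alternatives). The partner subunits Il12a and Il23a were not called, at -0.64 and -0.21, and were at means of 0.723 and 0.85 TPM. Il27, a cytokine subunit of the IL-12 family, was at 279, 367 and 336 TPM in GILZ KO and 441, 493 and 474 TPM in GILZ TG (-0.53 ± 0.10 SE, edgeR adjusted p = 0.0249, 16 of 20 alternatives).

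The classical inflammatory cytokines were not called. Tnf was at 2306, 2268 and 2139 TPM in GILZ KO and 2042, 1959 and 2375 TPM in GILZ TG, with overlapping groups (0.06 ± 0.09 SE, edgeR adjusted p = 0.772). Il1b was at 5749, 5701 and 6103 TPM in GILZ KO and 3157, 3293 and 6637 TPM in GILZ TG. TG replicates 1 and 2 were low, replicate 3 was above every KO library, and the call depended on it (0.41 ± 0.25 SE, edgeR adjusted p = 0.41, and 0.87 with adjusted p = 0.000679 without it, over all alternatives 0.000679 to 0.756).

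Il6 had the same order, at 1101, 1261 and 1184 TPM in GILZ KO and 734, 721 and 1501 TPM in GILZ TG (0.25 ± 0.25 SE, edgeR adjusted p = 0.646, and 0.71 with adjusted p = 0.00394 without TG replicate 3, over all alternatives 0.00394 to 0.964). So did Il1a, at 2819, 2932 and 2915 TPM in GILZ KO and 1255, 1364 and 3003 TPM in GILZ TG (0.61 ± 0.28 SE, edgeR adjusted p = 0.261, and 1.15 with adjusted p = 0.000107 without that library, over all alternatives 0.000107 to 0.569). For these 3 cytokines, replicate 3 of GILZ TG was above every KO library. Il10, which dampens macrophage activation, was at 36.8, 59.0 and 53.4 TPM in GILZ KO and 56.0, 67.1 and 52.3 TPM in GILZ TG, with overlapping groups (-0.24 ± 0.23 SE, edgeR adjusted p = 0.617). Saa3 (ENSMUSG00000040026, chromosome 7 from 46711998 to 46715700), an acute-phase gene that macrophages express after LPS, was at 2397, 2403 and 2518 TPM in GILZ KO and 591, 773 and 1406 TPM in GILZ TG. The KO libraries were nearly equal, and the TG libraries lay below them over a wide range (1.39 ± 0.32 SE, edgeR adjusted p = 0.0477, 11 of 20 alternatives).

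**Figure D3:**
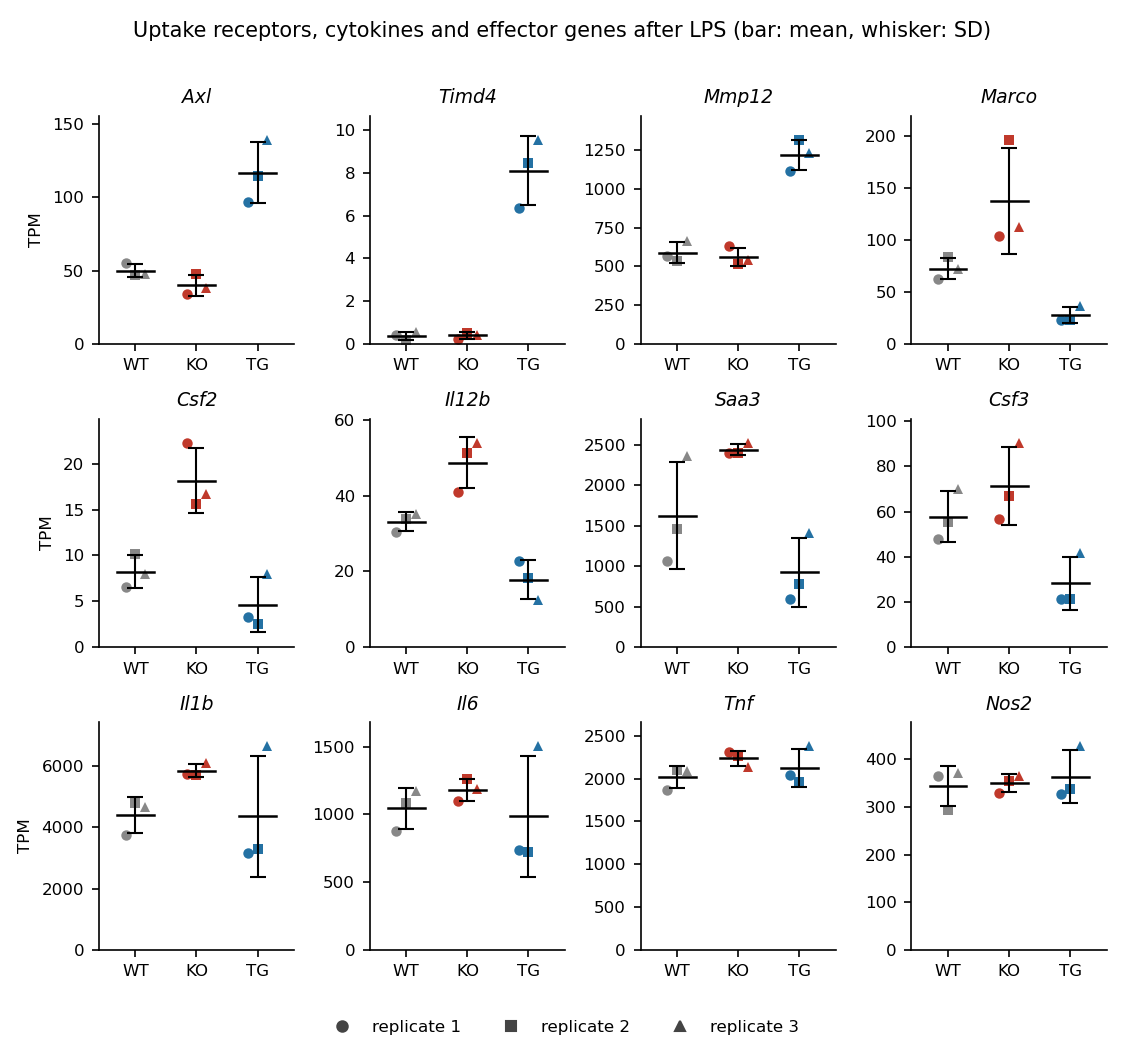
TPM after LPS of 12 uptake receptor, cytokine and effector genes in the WT, GILZ KO and GILZ TG libraries, with replicates as points, the mean as a bar and the SD as a whisker. Axl, Timd4 and Mmp12 are higher in all GILZ TG libraries than in any GILZ KO library, Marco, Csf2, Il12b, Saa3 and Csf3 are lower, and Il1b and Il6 are low in GILZ TG replicates 1 and 2 but not in replicate 3.

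Of 24 chemokine genes, all tested, 1 was called (4.17%, beside 2.6% of all genes). Cxcl9, which attracts T cells and is a known target of interferon gamma, was at 6.69, 13.1 and 8.59 TPM in GILZ KO and 37.8, 37.4 and 17.3 TPM in GILZ TG (-1.73 ± 0.35 SE, edgeR adjusted p = 0.0325, 13 of 20 alternatives). Ccl2, the monocyte attractant, was at 7886, 8464 and 8197 TPM in GILZ KO and 6373, 6326 and 10012 TPM in GILZ TG, with TG replicate 3 above and the other TG libraries below the KO libraries (0.10 ± 0.17 SE, edgeR adjusted p = 0.819, and 0.38 with adjusted p = 0.0408 without it, over all alternatives 0.0408 to 0.99). The abundant genes Cxcl10, Ccl3 and Ccl4 were not called, at -0.17, 0.08 and -0.06. The median of the list was -0.04, and without TG replicate 3 it was 0.16, with 6 genes called higher in GILZ KO (beside 5.23% of all genes in that fit) and 2 in GILZ TG (beside 5.97%).

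Most interferon response genes were at a slightly higher level in GILZ TG. Of 52 listed, 51 were tested and 3 were called (5.88%, beside 2.6% of all genes), Irf1, Mx1 and Mx2, all higher in GILZ TG. In 20 of the 51 genes all TG libraries lay above all KO libraries, beside 9.36% of all genes tested, and the reverse held for 1 gene, beside 11.2%. The median log2 fold change was -0.10, with 40 genes higher in GILZ TG and 11 in GILZ KO. With single libraries left out it lay between -0.14 and -0.03.

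Irf1 (ENSMUSG00000018899, chromosome 11 from 53770014 to 53778374), a transcription factor of the interferon response, was at 355, 396 and 357 TPM in GILZ KO and 527, 532 and 454 TPM in GILZ TG. The groups did not overlap (-0.45 ± 0.09 SE, edgeR adjusted p = 0.0323, 14 of 20 alternatives). Mx1, an antiviral GTPase, was at 1144, 1301 and 1171 TPM in GILZ KO and 1730.0, 1652 and 1613 TPM in GILZ TG (-0.47 ± 0.08 SE, edgeR adjusted p = 0.0168, 16 of 20 alternatives). Its relative Mx2 was at 235, 267 and 230.3 TPM in GILZ KO and 325, 315 and 312 TPM in GILZ TG (-0.39 ± 0.08 SE, edgeR adjusted p = 0.0285, 12 of 19 alternatives). The abundant members Rsad2, Cmpk2 and Ifit1 did not overlap either but were not called, at -0.25, -0.29 and -0.29. Ifnb1, the gene of interferon beta, was not called, at -0.81 (edgeR adjusted p = 0.0688).

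The promoter windows of Irf1 and Ifit1 are shown because their genes stand for this list and because they hold elements through which interferons act. They are RefSeq windows of GRCm38.p6, from 250 bases before to 50 bases after a start of the gene, at chr11:53769764-53770063 for Irf1 and chr19:34640639-34640938 for Ifit1, both on the plus strand. The table holds another Irf1 window, at chr11:53770223-53770522, without either interferon element. Capitals mark the gamma-activated sequence TTCNNNGAA in Irf1 and, in Ifit1, the interferon-stimulated response element, which is GAAA and again GAAA with any 2 bases between them and lies here on the opposite strand.
Irf1: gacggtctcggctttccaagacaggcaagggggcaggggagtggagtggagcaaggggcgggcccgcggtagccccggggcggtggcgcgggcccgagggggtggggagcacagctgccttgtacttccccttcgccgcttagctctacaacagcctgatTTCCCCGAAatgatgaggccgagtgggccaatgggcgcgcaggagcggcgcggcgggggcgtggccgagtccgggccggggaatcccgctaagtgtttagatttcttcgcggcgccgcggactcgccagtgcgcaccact
Ifit1: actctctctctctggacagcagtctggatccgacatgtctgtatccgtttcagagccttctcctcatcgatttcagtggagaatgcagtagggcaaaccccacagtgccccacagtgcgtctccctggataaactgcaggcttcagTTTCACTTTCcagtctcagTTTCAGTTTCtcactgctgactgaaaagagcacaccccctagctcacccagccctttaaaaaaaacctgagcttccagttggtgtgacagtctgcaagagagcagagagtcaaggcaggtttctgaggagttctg
Both strands of all windows were searched. The gamma-activated sequence was found in 12.9% of 155 windows of genes called higher in GILZ TG and 4.14% of 145 windows of genes called higher in GILZ KO, beside 6.97% of 11814 windows of tested genes and 8.3% of all 32851 windows. The interferon-stimulated response element was found in 7.1%, 3.45%, 3.4% and 3.44% in the same order. The NF-kB consensus was found in 15.5%, 8.97%, 10.3% and 8.46%, and the AP-1 site TGANTCA in 9.03%, 4.14%, 5.36% and 7.81%. Windows of one gene can overlap, the shares were not tested, and a match is not a bound site.

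For Toll-like receptor and NF-kB signalling, 1 gene was called in each direction of 42 tested (4.76%, beside 2.6% of all genes), and the median was 0.02. Irak3, an inhibitory relative of the kinases downstream of the receptors, was at 104, 88.6 and 98.2 TPM in GILZ KO and 46.4, 50.5 and 65.6 TPM in GILZ TG (0.81 ± 0.13 SE, edgeR adjusted p = 0.0141, 16 of 20 alternatives). Tlr9, the receptor for bacterial DNA, was at 5.94, 8.50 and 6.65 TPM in GILZ KO and 11.5, 15.2 and 11.8 TPM in GILZ TG (-0.88 ± 0.16 SE, edgeR adjusted p = 0.0195, 17 of 20 alternatives). Irak3 was thus higher in every KO library and Tlr9 in every TG library. The abundant members Cd14, Nfkbia, the inhibitor of NF-kB, and Ikbke, a kinase of the interferon branch, were not called, at 0.20, -0.09 and -0.10.

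Of 21 inflammasome and pyroptosis genes tested, 2 were called (9.52%), both higher in GILZ KO, beside 1.22% of all genes, and the median was -0.005. Naip2, a sensor of bacterial secretion systems, was at 43.7, 41.8 and 40.2 TPM in GILZ KO and 32.5, 31.9 and 33.2 TPM in GILZ TG (0.36 ± 0.07 SE, edgeR adjusted p = 0.0277, 13 of 20 alternatives), and its reads may be shared with related Naip genes. Nlrc4, the adaptor that NAIP proteins activate, was at 5.87, 4.28 and 4.62 TPM in GILZ KO and 2.56, 3.59 and 2.85 TPM in GILZ TG (0.72 ± 0.15 SE, edgeR adjusted p = 0.0382, 11 of 20 alternatives). Neither gene overlapped between the groups. Nlrp3, Casp1 and Ninj1 were not called, at 0.04, 0.12 and -0.10.

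Among 18 tested matrix metalloproteinases, related proteases and inhibitors, 14 had a higher level in GILZ TG, 1 was called in each direction (11.1%, beside 2.6% of all genes), and the median was -0.27. Mmp12 (ENSMUSG00000049723, chromosome 9 from 7344381 to 7369499), the macrophage elastase, was at 629, 515 and 539 TPM in GILZ KO and 1115, 1312 and 1228 TPM in GILZ TG. The groups were well apart, with WT at a mean of 587 TPM (-1.12 ± 0.10 SE, edgeR adjusted p = 0.000592, 20 of 20 alternatives). Mmp14, a membrane-bound collagenase, was at 128, 140.0 and 141 TPM in GILZ KO and 94.0, 105 and 102 TPM in GILZ TG (0.44 ± 0.07 SE, edgeR adjusted p = 0.0141, 15 of 20 alternatives).

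Mmp9, a gelatinase, overlapped between the groups at 252 to 394 TPM in GILZ KO and 214 to 406 TPM in GILZ TG (-0.06 ± 0.23 SE, edgeR adjusted p = 0.92). Mmp2, a gelatinase that is also in the stromal list, was at 0.40, 0.58 and 0.50 TPM in GILZ KO and 1.49, 1.96 and 0.50 TPM in GILZ TG and was high in TG replicates 1 and 2 only (-1.46 ± 0.44 SE, edgeR adjusted p = 0.103, and -1.81 with adjusted p = 0.00395 without TG replicate 3, over all alternatives 0.00395 to 0.322). Of the 3 most abundant members, Mmp12 was called, and Mmp13 and Adam8 were not, at -0.20 and -0.23. Plau, the urokinase gene, was at 44.9, 45.3 and 52.1 TPM in GILZ KO and 151, 160.0 and 72.9 TPM in GILZ TG (-1.43 ± 0.23 SE, edgeR adjusted p = 0.0141, 16 of 20 alternatives). Without TG replicate 3, 2 genes of the list were called higher in GILZ KO (beside 5.23% of all genes in that fit) and 8 in GILZ TG (beside 5.97%).

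In arginine metabolism, 1 of 12 genes tested was called (8.33%, beside 2.6% of all genes). Slc7a2, the transporter that brings arginine into macrophages, was at 53.2, 56.7 and 64.4 TPM in GILZ KO and 32.6, 39.1 and 37.6 TPM in GILZ TG (0.63 ± 0.10 SE, edgeR adjusted p = 0.0137, 18 of 20 alternatives). Nos2, the inducible nitric oxide synthase, was at 329.7, 355 and 366 TPM in GILZ KO and 327, 338 and 427 TPM in GILZ TG and overlapped (-0.06 ± 0.12 SE, edgeR adjusted p = 0.834). Odc1 and Ass1 were not called either, at 0.02 and 0.11.

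Of 25 glycolysis genes tested, 2 were called (8.0%), both higher in GILZ KO, beside 1.22% of all genes, and the median was -0.02. Pfkl, a phosphofructokinase subunit of the committing step, was at 44.3, 33.0 and 42.9 TPM in GILZ KO and 22.5, 23.5 and 23.0 TPM in GILZ TG (0.84 ± 0.09 SE, edgeR adjusted p = 0.00352, 20 of 20 alternatives). Slc16a3, an exporter of lactate, was at 69.7, 54.8 and 66.0 TPM in GILZ KO and 33.0, 37.6 and 45.5 TPM in GILZ TG (0.71 ± 0.15 SE, edgeR adjusted p = 0.0335, 13 of 20 alternatives). In 7 of the 25 genes all KO libraries were above all TG libraries, beside 11.2% of all genes tested, and in 1 the reverse held, beside 9.36%. Gapdh, Pkm and Pgk1 were not called, at -0.13, -0.18 and -0.07. Of 37 subunits of complex I of the respiratory chain, 0 were called by edgeR, DESeq2 or limma and 3 had an unadjusted p-value under 0.05, beside 19.1% of all genes, with a median of -0.06. Of 77 mitochondrial ribosomal protein genes, 0 were called by these tools and 7 had an unadjusted p-value under 0.05, beside the same 19.1%, with a median of -0.03.

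In lipid metabolism, Abcg1, an exporter of cholesterol, was the called gene of 11 tested targets of the liver X receptor (9.09%, beside 2.6% of all genes), at 25.7, 23.4 and 24.0 TPM in GILZ KO and 33.9, 42.7 and 29.9 TPM in GILZ TG (-0.56 ± 0.12 SE, edgeR adjusted p = 0.0407, 11 of 20 alternatives). Apoe, the apolipoprotein of macrophages, was at 308, 475 and 525 TPM in GILZ KO and 2095, 2833 and 395 TPM in GILZ TG. It was high in TG replicates 1 and 2, whereas replicate 3 lay within the KO range (-1.95 ± 0.63 SE, edgeR adjusted p = 0.121, and -2.41 with adjusted p = 0.00794 without replicate 3, over all alternatives 0.00607 to 0.345). Of 23 cholesterol synthesis genes, 19 were at a higher level in GILZ KO and the median was 0.20. However, 0 were called by edgeR, DESeq2 or limma and 3 had an unadjusted p-value under 0.05, beside 19.1% of all genes. Without TG replicate 3 the median was 0.34 and 8 were called, all higher in GILZ KO, beside 5.23% of all genes in that fit.

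Of 22 oxidant and NRF2 response genes, 1 was called in each direction (9.09%, beside 2.6% of all genes), and the median was 0.11. Gsr, glutathione reductase, was at 216, 196 and 194 TPM in GILZ KO and 134, 143 and 157 TPM in GILZ TG (0.47 ± 0.09 SE, edgeR adjusted p = 0.0271, 14 of 20 alternatives). Ncf1, the organiser subunit of the NADPH oxidase, was at 309, 313 and 325 TPM in GILZ KO and 398, 419 and 415 TPM in GILZ TG (-0.38 ± 0.06 SE, edgeR adjusted p = 0.0137, 16 of 20 alternatives). Gsr was higher in all KO libraries and Ncf1 in all TG libraries, and the catalytic subunit gene Cybb was not called, at 0.19. Of 28 cathepsin and lysosome genes (3.57% called, beside 2.6% of all genes), Ctsh, an aminopeptidase, was called, at 102, 106 and 98.3 TPM in GILZ KO and 139, 144 and 127 TPM in GILZ TG (-0.40 ± 0.07 SE, edgeR adjusted p = 0.0162, 16 of 20 alternatives). The abundant members Ctsd, Ctsb and Psap were not called, at -0.15, -0.07 and -0.24, and the median was -0.09.

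Of 17 tested genes of the glucocorticoid receptor and its targets, 1 was called in each direction (11.8%, beside 2.6% of all genes), and the median was -0.175. Sgk1, a kinase gene induced by glucocorticoids, was at 54.8, 54.4 and 53.8 TPM in GILZ KO and 80.6, 90.8 and 67.8 TPM in GILZ TG (-0.49 ± 0.09 SE, edgeR adjusted p = 0.0169, 16 of 20 alternatives). Fpr1, a receptor for bacterial peptides and for annexin A1, was at 82.5, 91.6 and 117 TPM in GILZ KO and 46.0, 51.1 and 70.1 TPM in GILZ TG (0.80 ± 0.18 SE, edgeR adjusted p = 0.0446, 11 of 20 alternatives). Neither gene overlapped between the groups, and the abundant members Anxa1 and Cebpb were not called, at -0.17 and 0.36. In the TSC22 family, Tsc22d4 and Tsc22d1 were not called, at 0.06 and 0.25.

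Of 20 growth and survival factor genes tested, 3 were called (15.0%, beside 2.6% of all genes). Gdf15, a stress-induced cytokine, was at 7.14, 7.11 and 8.14 TPM in GILZ KO and 4.23, 2.95 and 3.55 TPM in GILZ TG (1.04 ± 0.18 SE, edgeR adjusted p = 0.0162, 16 of 19 alternatives). Kitl, the gene of stem cell factor, was at 12.8, 17.2 and 12.2 TPM in GILZ KO and 24.2, 22.2 and 17.4 TPM in GILZ TG (-0.60 ± 0.12 SE, edgeR adjusted p = 0.0325). Bmp2, a bone morphogenetic protein gene, was at 4.66, 7.17 and 5.55 TPM in GILZ KO and 9.43, 9.43 and 11.0 TPM in GILZ TG (-0.80 ± 0.17 SE, edgeR adjusted p = 0.0344). Gdf15 was thus higher in all KO libraries and the others in all TG libraries, and the median of the list was -0.13. The abundant members Spp1, Csf1r and Igf1 were not called, at -0.41, -0.02 and 0.02.

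Of 28 immediate early and MAP kinase feedback genes tested (3.57% called, beside 2.6% of all genes), Fosl2, a subunit of AP-1, was called, at 13.4, 13.4 and 15.1 TPM in GILZ KO and 5.40, 7.74 and 7.67 TPM in GILZ TG (1.01 ± 0.17 SE, edgeR adjusted p = 0.0154, 17 of 20 alternatives). The abundant members Zfp36, Socs3 and Klf6 were not called, at -0.04, 0.10 and -0.05. Outside the lists, Rgs2, a regulator of G protein signalling, was at 114, 177 and 139 TPM in GILZ KO and 338, 286 and 284 TPM in GILZ TG and was higher in every TG library (-1.15 ± 0.14 SE, edgeR adjusted p = 0.00496, 20 of 20 alternatives).

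Of the genes for MHC class II presentation (10 tested), DNA replication (42), mitosis (24) and the unfolded protein and integrated stress response (23), 0 were called by edgeR. There were 2, 3, 0 and 7 with an unadjusted p-value under 0.05 (beside 19.1% of all genes), DESeq2 called 0, 0, 0 and 4 (beside 5.88%), and limma called 0 of each (beside 1.21%). The medians were -0.16, -0.13, 0.11 and 0.13. Without GILZ TG replicate 3, 0, 3, 0 and 5 were called, beside 11.2% of all genes in that fit. Of 34 ribosome biogenesis genes (2.94% called, beside 2.6% of all genes), Heatr1, a factor of rRNA synthesis, was called higher in GILZ KO (0.32 ± 0.07 SE, edgeR adjusted p = 0.0446, 7 of 20 alternatives), and the median was 0.09.

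Without GILZ TG replicate 3, more genes were called in other lists too. The numbers called higher in GILZ KO and in GILZ TG, beside 5.23% and 5.97% of all genes, were 9 and 3 of 25 cytokines, 7 and 1 of 42 Toll-like receptor and NF-kB genes, with a median of 0.09, and 6 and 8 of 36 uptake receptors. They were 5 and 2 of 25 glycolysis genes, 5 and 2 of 22 oxidant and NRF2 genes and 3 and 7 of 20 growth and survival factors. For glucocorticoid targets they were 3 and 4, for immediate early genes 3 and 4, for liver X receptor targets 0 and 3, for lysosome genes 2 and 2, for inflammasome genes 3 and 0, for arginine metabolism 2 and 0 and for interferon response genes 0 and 4. With any single library left out, the calls ranged from 1 to 12 for cytokines, from 0 to 8 for Toll-like receptor and NF-kB genes and from 4 to 14 for uptake receptors. Over all genes they ranged from 24 to 1403. The lowest number was also 0 for chemokines, interferon response, inflammasome, arginine metabolism, glucocorticoid targets and oxidant and NRF2 genes. It was 0 as well for growth and survival factors, immediate early genes, liver X receptor targets, lysosome genes and ribosome biogenesis.

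**Figure D4:**
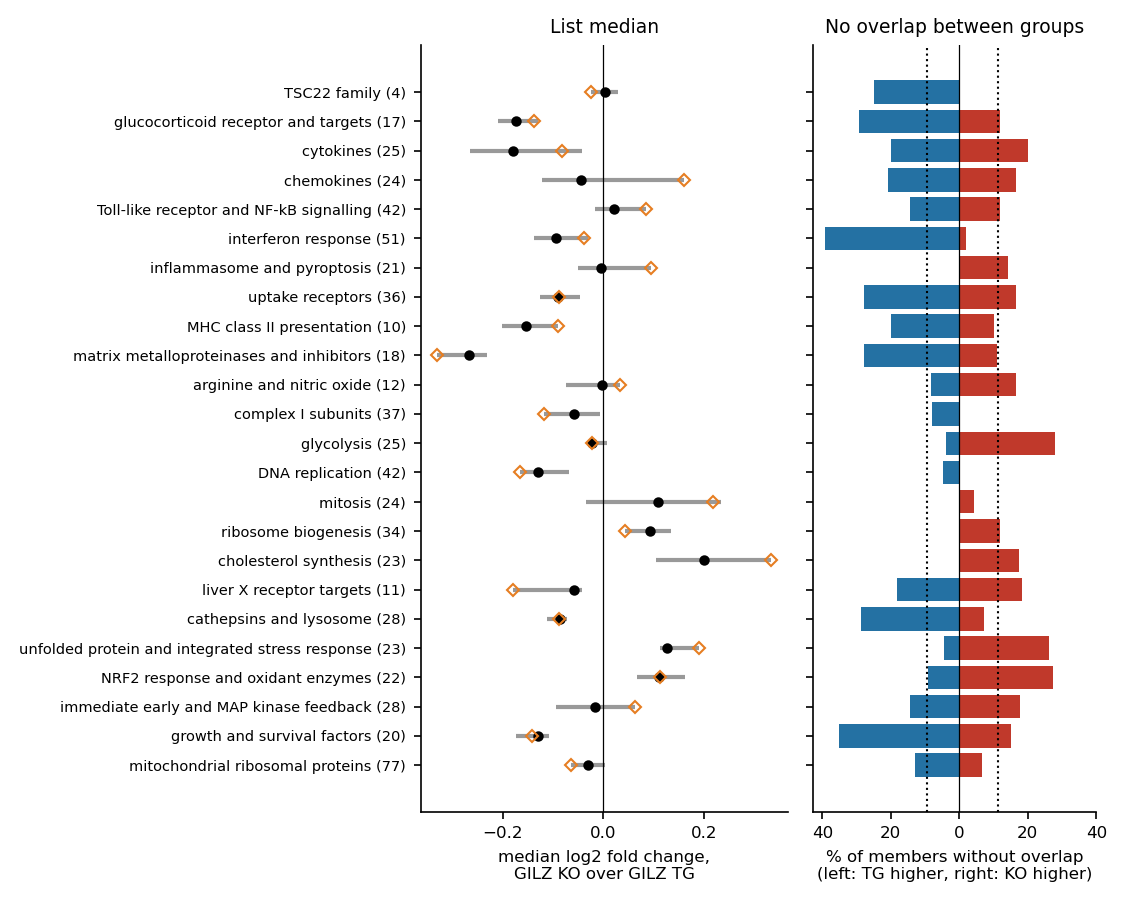
Left, the median log2 fold change of GILZ KO over GILZ TG after LPS for 24 gene lists (points, number of genes tested in brackets), its range with each library left out in turn (grey lines) and its value without GILZ TG replicate 3 (open diamonds). Right, the percentage of each list in which all libraries of one genotype lie above all of the other, with dotted lines at 11.2% and 9.36% for all genes, where the interferon response has 20 of 51 genes on the GILZ TG side.

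Over the whole table, 21 genes were called in every alternative that tested them, 13 higher in GILZ KO and 8 in GILZ TG, and 11 of the 63 called genes named by rule were among them. The other 10 were picked after their values were seen. Ptges, the prostaglandin E synthase that is induced by LPS, was at 411, 356 and 449.9 TPM in GILZ KO and 225, 175 and 222 TPM in GILZ TG (1.06 ± 0.10 SE, edgeR adjusted p = 0.00117). Fabp3, a fatty acid carrier, was at 38.5, 44.7 and 40.1 TPM in GILZ KO and 19.3, 15.0 and 22.6 TPM in GILZ TG (1.11 ± 0.16 SE, edgeR adjusted p = 0.00785). Neither overlapped between the groups. Bnip3, a gene of mitophagy, Mgst1, a glutathione transferase gene, and Bst1, Sirpb1c and Akap2 were also higher in GILZ KO, by 0.73, 0.74, 0.86, 1.01 and 0.69 on the log2 scale. Otud1, a deubiquitinase gene, was at 35.4, 47.0 and 34.6 TPM in GILZ KO and 79.4, 79.3 and 72.3 TPM in GILZ TG and was higher in GILZ TG (-0.99 ± 0.12 SE, edgeR adjusted p = 0.00496). Tgtp1, an interferon-induced GTPase gene with a close copy, was at 57.4, 70.6 and 65.6 TPM in GILZ KO and 103, 103 and 133 TPM in GILZ TG (-0.86 ± 0.12 SE, edgeR adjusted p = 0.00785), and Parvg had a log2 fold change of -0.58.

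Some of the largest differences concern transcripts whose reads may not be placed with certainty. Gm12854, Gm12254, Gm6977 and Gm10288, annotated as processed pseudogenes, and Rpl36a-ps1 were higher in GILZ KO, with log2 fold changes of 2.10, 1.81, 1.57, 1.49 and 2.09. They were called in 8 of 18, 15 of 18, 18 of 18, 7 of 18 and 11 of 19 alternatives. Copies of this kind share reads with their parent genes, and an expected count splits such reads by an estimate. Of 276 processed pseudogenes tested, 9 were called, all higher in GILZ KO, which is 3.26% beside 1.19% of 11351 protein-coding genes called in that direction. Their median was 0.30, while their summed level was 7541, 7626 and 7539 TPM in GILZ KO and 7500, 7594 and 6468 TPM in GILZ TG and overlapped.

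At the other end were the immunoglobulin genes. Igkc was at 1.34, 0 and 0 TPM in GILZ KO and 43.1, 93.2 and 7.28 TPM in GILZ TG (edgeR adjusted p = 0.0161). Ighg2b was at 0.43, 0 and 0.49 TPM in GILZ KO and 9.31, 35.0 and 3.75 TPM in GILZ TG (edgeR adjusted p = 0.0163). Both were lowest in TG replicate 3 among the TG libraries. The remaining genes named by size were Dner, a ligand of Notch, at 10.9, 11.3 and 9.97 TPM in GILZ KO and 4.25, 2.35 and 6.64 TPM in GILZ TG (1.29 ± 0.28 SE, edgeR adjusted p = 0.0407), and Nap1l2, a nucleosome assembly factor, at 2.22, 2.52 and 2.19 TPM in GILZ KO and 4.95, 4.56 and 6.20 TPM in GILZ TG (-1.19 ± 0.16 SE, edgeR adjusted p = 0.00785).

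The share of called genes near the engineered loci was as follows, beside 2.6% of all genes. Within 10 Mb of Tsc22d3 it was 2 of 46 other genes (4.35%), Col4a5 higher in GILZ KO and Armcx6 higher in GILZ TG. Around Lyz2 it was 1 of 64 (1.56%), Irak3, and around Gt(ROSA)26Sor 1 of 91 (1.1%), its neighbour Setd5 at 0.29. Over the autosomes and the X chromosome the share lay between 1.36% on chromosome 16 and 3.54% on chromosome 7.

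The WT libraries were compared by level only. The WT mean lay between those of GILZ KO and GILZ TG in 136 of the 148 genes higher in GILZ KO (91.9%) and in 145 of the 168 genes higher in GILZ TG (86.3%), beside 39.9% of all genes. A wide gap between groups makes this more likely, and no test was made. Of the genes in between, WT was nearer to GILZ KO in 85 (62.5%) and 105 (72.4%), beside 53.0% for all genes. Axl was at a mean of 50.0 TPM in WT, beside 39.9 in GILZ KO and 117 in GILZ TG, and Itgax at 4.54, 4.67 and 13.5 TPM. Clec7a, at 29.5 TPM, was below both. Il12b was at 33.1 TPM in WT, between 48.7 and 17.8 TPM.

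The genotypes also differed without LPS, where 623 of 12621 genes were called (4.94%). Of the 316 genes called after LPS, 102 were called there too, which is 32.3% of the genes called after LPS and 16.4% of those called untreated, and 101 of these had the same direction. Untreated and LPS libraries share replicate numbers and may come from the same preparations, so the lists cannot be taken as independent. The correlations of these pairs ran from -0.009 for GILZ KO replicate 1 to 0.608 for GILZ TG replicate 3. In a fit of all 18 libraries, the difference between GILZ KO and GILZ TG itself changed with LPS for 16 of 13169 genes (0.121%), towards GILZ KO in 7 and towards GILZ TG in 9, with 1306 at an unadjusted p-value under 0.05. With the preparation as a replicate block, which takes untreated and LPS libraries of the same number as paired, there were 144 such genes.

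Gdf15 was at 12.2, 11.1 and 14.6 TPM in untreated GILZ KO and 15.8, 17.5 and 20.5 TPM in untreated GILZ TG, and after LPS at 7.14, 7.11 and 8.14 TPM and 4.23, 2.95 and 3.55 TPM. Its order thus turned (difference of the log2 fold changes 1.56 ± 0.23 SE, edgeR adjusted p = 0.0229, over the alternatives 2.51e-06 to 0.0831). Syne3, a gene of the nuclear envelope, was at 32.6, 31.7 and 34.3 TPM in untreated GILZ KO and 25.2, 23.4 and 19.95 TPM in untreated GILZ TG, and after LPS at 6.44, 7.58 and 5.61 TPM and 8.78, 11.1 and 8.32 TPM. It was higher in GILZ KO before and in GILZ TG after LPS (-1.04 ± 0.16 SE, edgeR adjusted p = 0.0229). Rere, a corepressor gene, and Endod1 moved towards GILZ TG, by -0.86 and -0.46, and Jmjd6 and Mapk7, the gene of the kinase ERK5, towards GILZ KO, by 0.71 and 0.58.

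In untreated cells, 9 of 50 tested interferon response genes were called, all of them towards GILZ KO, beside 4.94% of all genes called in either direction. For this list the median was 0.34 beside -0.004 for all genes. The median change of the difference with LPS was -0.44, beside -0.0216 for all genes. In that test 3 genes of the list passed the threshold, Ifi209, Ifit1 and Mx2, beside 0.121% of all genes. Ifit1 was at 16.9, 9.95 and 9.42 TPM in untreated GILZ KO and 4.31, 5.04 and 6.50 TPM in untreated GILZ TG, and after LPS at 2005, 2321 and 2068 TPM and 2573, 2597 and 2596 TPM. The genotype that was higher before LPS was the lower one after it (-1.47 ± 0.24 SE, edgeR adjusted p = 0.0237, over the alternatives 2.51e-06 to 0.0864). DESeq2 found a changed difference for 150 genes. Leaving out single libraries gave 0 such genes without GILZ KO LPS replicate 3 or GILZ TG LPS replicate 2, 1 without GILZ KO LPS replicate 1, 3 without untreated GILZ KO or GILZ TG replicate 1, 6 without untreated GILZ TG replicate 2, 49 without GILZ KO LPS replicate 2, and 61 and 82 without the untreated and the LPS library of GILZ TG replicate 3.

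**Figure D5:**
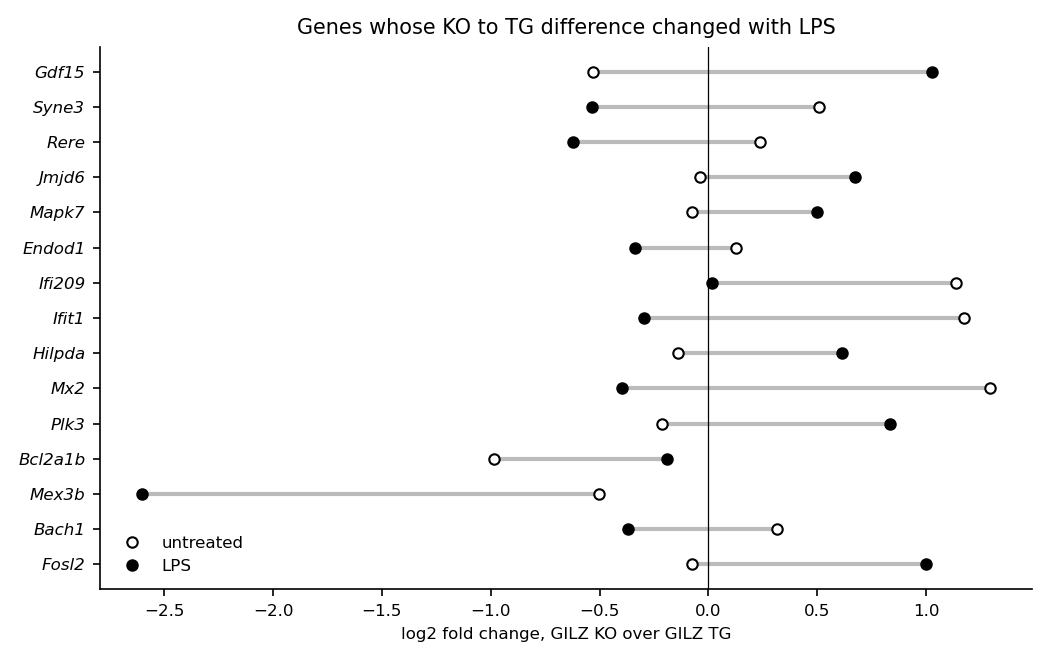
Log2 fold change of GILZ KO over GILZ TG without treatment (open circles) and after LPS (filled circles) for 15 of the 16 genes whose difference changed with LPS, from one fit of 18 libraries. Arl4d is left out because all GILZ KO libraries were at 0 after LPS, and Ifit1, Ifi209 and Mx2 lie far above 0 only without treatment.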

How the data were processed

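Per the labels, poly(A) RNA was sequenced with a directional kit. The authors mapped the reads to GRCm38 (mm10) with the grape-nf pipeline, and the submitters' processing notes name FastQC 0.11.2 and DESeq2 1.40.2. The annotation release of the counting is not given in the sources used here. For 38887 genes the deposited data give an expected count, an estimate that is not normalized, and the TPM, which the authors scaled by length and total. The authors' tables of fold changes and p-values hold their own comparisons and were not used.

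Rounded expected counts were filtered with filterByExpr, normalized by TMM and tested with edgeR 4.0.16 (quasi-likelihood, R 4.3.3), on the 9 LPS libraries for GILZ KO against GILZ TG and on all 18 for the change with LPS. Adjustment followed Benjamini and Hochberg with a threshold of 0.05. The SE beside a log2 fold change was derived from the edgeR test. It is the absolute log2 fold change divided by the square root of the test's F statistic. The tests were tried on simulated data. Symbols came from a gene-name table and positions from GENCODE M21, each matching 37570 identifiers. Same-numbered GILZ KO and GILZ TG libraries were not taken as pairs. Of 9 pairs of untreated and LPS libraries, 7 had a correlation above 0.1. The test of the change with LPS had no block, and the count with a block is given beside it.

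Named were Tsc22d3, Lyz2, the 12 largest called differences in each direction without overlap and with at least 5 TPM in the higher group, called members of 24 pathway and 13 marker lists, the 3 most abundant members of each pathway list, a fixed set of macrophage and sex chromosome genes, called genes within 10 Mb of the engineered loci and the 6 smallest p-values of the change with LPS. Members and lists were chosen with earlier results of these data known. Of the listed symbols, 5 had no match. Some genes that the naming rule covers are not reported here. Alternatives were DESeq2 1.42.0 and limma 3.58.1 on log2 TPM with 1 or 0.1 added, other size factors, filters, gene classes and library sets, a length trend, a replicate block and each library left out. Figures were drawn with matplotlib 3.10.9.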

Additional observations from a re-analysis of the deposited data

Results flagged for a closer look

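For 16 genes, edgeR's test over 18 libraries found another distance between GILZ KO and GILZ TG after LPS than without it. The values are differences of log2 fold changes, LPS minus untreated. They were positive for Gdf15 (1.56), Jmjd6 (0.71), Mapk7 (0.58), Hilpda (0.75), Plk3 (1.05), Bcl2a1b (0.79) and Fosl2 (1.08). They were negative for Syne3 (-1.04), Rere (-0.86), Endod1 (-0.46), Ifi209 (-1.12), Ifit1 (-1.47), Mx2 (-1.69), Mex3b (-2.10), Bach1 (-0.68) and Arl4d (-6.22). Arl4d was at 0 in all 3 GILZ KO libraries after LPS and at 0.42, 0.41 and 0.27 TPM in GILZ TG, so its value depends on the prior count and is no bound. With the preparation as a replicate block it no longer passed the threshold (edgeR adjusted p = 0.0506, and 0.0271 without the block, over the alternatives 0.018 to 0.133), and the other 15 genes did. Reads of Bcl2a1b can be shared with its close relatives.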

How the results depend on the processing

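Of the 63 called genes named by rule, all kept their direction in all 20 alternatives that tested them, and 11 were called in each. The 316 calls (148 higher in GILZ KO, 168 in GILZ TG) became 715 (308 and 407) with DESeq2, 795 (323 and 472) with all 18 libraries, 822 (308 and 514) without a filter, 147 (77 and 70) and 149 (78 and 71) with limma on log2(TPM + 1) and log2(TPM + 0.1), and 2328 (1088 and 1240) at an unadjusted p under 0.05. With single libraries left out they ranged from 24 to 1403 (16 to 655 and 8 to 748). Size factors, the stricter filter, 6 libraries, protein-coding genes and the length trend gave 268 to 373. The replicate block gave 273. Deviations from the group mean in same-numbered GILZ KO and GILZ TG libraries had correlations of -0.056, -0.106 and -0.11. With 3 libraries in a group, these values cannot decide whether such libraries were handled together.

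The 16 genes whose difference changed with LPS became 150 with DESeq2, 144 with the preparation as a replicate block, 63 without a filter and 1306 at an unadjusted p under 0.05, and ranged from 0 to 82 with single libraries left out. Within 5 Mb of Tsc22d3, 1 of 27 other genes was called (3.7%, beside 2.6% of all genes). Within 20 Mb, 2 of 130 were called near Lyz2 (1.54%) and 4 of 182 near Gt(ROSA)26Sor (2.2%). Of 719 list medians under the alternatives, 29 moved by more than the replicate SD. The causes were not tested. The libraries compared held 14583055 to 38557029 reads, and how far this depth limits the calls of low genes was not tested.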
